A study of Mus musculus with 4 samples.

Results

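Levels of 9 genes that make, reduce, sense or inactivate prostaglandins were read in 4 single-cell libraries of cells cultured from mouse fat, out of 32285 genes in the count tables. They were picked by symbol, with their levels in these libraries in view: the cyclooxygenases Ptgs1 and Ptgs2, the synthases Ptges, Ptgis and Ptgds, the reductases Akr1c18 and Akr1b3, the receptor Ptger4 and the dehydrogenase Hpgd. All 9 were listed in every table, and 8 of them reached 5 CPM (counts per 1000000 UMIs, the unique molecular identifiers that each stand for 1 captured transcript) in at least 1 library. Because the choice used the measured levels, the values below are a description of these libraries and carry no test.

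Prostaglandins are short-lived lipid signals made from arachidonic acid, which a phospholipase frees from the membrane and a cyclooxygenase turns into the intermediate PGH2. Terminal synthases then make prostaglandin E2, prostacyclin or prostaglandin D2 from it, and aldo-keto reductases can make prostaglandin F2α, while Hpgd starts the breakdown of the products. In adipose tissue these lipids are known to act on precursor cells and on fat breakdown, some of them slowing and others favouring adipocyte formation.

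The libraries named iWAT_DFAT and eWAT_DFAT come from DFAT (de-differentiated fat) cells, which grow out of floating mature adipocytes held against the ceiling of a filled flask. The depots are inguinal (iWAT) and epididymal (eWAT) white adipose tissue. The iWAT_SVF and eWAT_SVF libraries hold adherent cells grown from the stromal vascular fraction (SVF) of the same depots, which the study calls adipose stem and progenitor cells (ASPCs). By the study's own account the donors were male C57BL/6J mice on a chow diet; the labels give neither strain nor age, and they do not say how many animals were pooled. Every culture was detached with trypsin and sorted for live cells, and each condition is 1 library, so depot or cell source cannot be told apart from the culture and the library.

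The 4 libraries gave 7629 (iWAT_DFAT), 6464 (eWAT_DFAT), 7424 (iWAT_SVF) and 6745 (eWAT_SVF) cells with between 183664704 and 199357348 UMIs a library and medians of 22111 to 27617 UMIs per cell. Any pair of libraries shared 13 to 20 cell barcodes, at most 0.297% of the smaller library. Markers of ASPCs were found at 3 or more of 8 genes in 97.2%, 63.9%, 86.8% and 84.4% of cells in that order of libraries, after each cell was thinned to 5000 UMIs. The 8 adipocyte markers summed to 29.9 and 82.3 CPM in the iWAT_DFAT and eWAT_DFAT libraries and to 1.29 and 2.02 in the iWAT_SVF and eWAT_SVF libraries. Between 1 and 2 of these 8 markers had no UMI in each library. Intervals below are 95% intervals that cover counting error only, exact except for differences between log2 ratios, where they are approximate. For levels and ratios they leave out the spread between cells, which matters most in small sets of cells. None covers differences between cultures or animals.

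Promoters are shown for Ptgs2, Ptges and Akr1c18, the 3 genes that lay farthest apart between DFAT and SVF cells among members at 5 CPM or more in either library of a depot. They come from RefSeq on GRCm38.p6, run 5′ to 3′ on the gene's own strand, and span 250 bases before to 50 bases after the RefSeq start; such a window was at hand for 7 of the 9 genes, not for Ptgis or Akr1b3. Capitals mark matches on either strand to any of 7 motifs: the antioxidant response element core (TGACNNNGC), the kB site (the consensus of NF-κB), the cyclic AMP response element core (TGACGT), the E-box (CACGTG), the C/EBP site (TTGCNNAA), the AP-1 site (TGANTCA) and the GC box (GGGCGG). The Ptgs2 window is chr1:150099781-150100080 on the plus strand, the Ptges window chr2:30903248-30903547 on the minus strand and the Akr1c18 window chr13:4150597-4150896 on the minus strand.
Ptgs2: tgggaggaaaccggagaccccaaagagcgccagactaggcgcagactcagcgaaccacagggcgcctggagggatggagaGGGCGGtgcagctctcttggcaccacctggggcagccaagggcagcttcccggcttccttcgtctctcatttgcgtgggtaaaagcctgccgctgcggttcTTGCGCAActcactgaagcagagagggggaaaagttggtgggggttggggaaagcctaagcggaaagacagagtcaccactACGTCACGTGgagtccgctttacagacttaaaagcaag
Ptges: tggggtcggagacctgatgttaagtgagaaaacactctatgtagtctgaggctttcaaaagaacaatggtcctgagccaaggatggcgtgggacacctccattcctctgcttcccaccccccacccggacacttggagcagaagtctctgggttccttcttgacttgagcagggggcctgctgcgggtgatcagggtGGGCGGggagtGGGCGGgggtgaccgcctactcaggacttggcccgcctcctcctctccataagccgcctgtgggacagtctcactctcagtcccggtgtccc
Akr1c18: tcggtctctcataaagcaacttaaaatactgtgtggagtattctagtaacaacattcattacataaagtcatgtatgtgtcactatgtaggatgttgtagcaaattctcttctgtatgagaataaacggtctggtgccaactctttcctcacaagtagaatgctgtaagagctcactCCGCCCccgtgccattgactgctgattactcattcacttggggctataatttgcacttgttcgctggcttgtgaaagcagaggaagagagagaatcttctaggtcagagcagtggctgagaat

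The Ptgs2 window held 4 of the 7 motifs, each once: a GC box, a C/EBP site, a cyclic AMP response element core and an E-box. The cyclic AMP response element core and the E-box overlap in the run ACGTCACGTG, just downstream of the RefSeq start. The Ptges window held 2 GC boxes and the Akr1c18 window 1. Among 32851 promoter windows of the same length, the GC box was found in 35.7%, the C/EBP site in 10.8%, the cyclic AMP response element core in 7.51% and the E-box in 7.15%. No letters of the antioxidant response element core (12.4% of all windows), the kB site (8.46%) or the AP-1 site (7.81%) matched within these 3 windows. These matches describe the letters and are not measured binding.

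Ptgs2 (ENSMUSG00000032487, GRCm38 chr1:150100031-150108227, plus strand), the inducible cyclooxygenase, stood at 550 CPM in the iWAT_DFAT library (95% interval 546 to 553). It stood at 302 in the eWAT_DFAT library (299 to 304), 58.0 in the iWAT_SVF library (56.9 to 59.0) and 32.0 in the eWAT_SVF library (31.2 to 32.8). Both DFAT libraries lay above both SVF libraries, and within each source the iWAT library lay above the eWAT one. The level was 9.48-fold higher in DFAT than in SVF cells of iWAT (log2 ratio 3.25, 3.22 to 3.27) and 9.43-fold higher in those of eWAT (3.24, 3.20 to 3.28). These ratios differed by 0.0077 on the log2 scale, with an interval of -0.039 to 0.054 that spans 0. The iWAT to eWAT ratio was likewise close in both sources, at a log2 of 0.86 in DFAT cells and 0.86 in SVF cells.

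At equal depth, 81.0% of iWAT_DFAT cells held a Ptgs2 UMI, against 52.2% of eWAT_DFAT, 16.7% of iWAT_SVF and 10.6% of eWAT_SVF cells. The richest 5% of cells held 18.9% of its UMIs in iWAT_DFAT, 31.7% in eWAT_DFAT, 54.6% in iWAT_SVF and 66.1% in eWAT_SVF. Endothelial-marker cells of the eWAT_DFAT library, a type other than the cultured one, gave a share of 11.5% at the same thinned depth (139 cells). Their median was 10641 UMIs before thinning, against 27664 in the others. Endothelial-marker cells of the SVF libraries gave 7.55% in iWAT_SVF (53 cells) and 0% in eWAT_SVF (129 cells). Droplets without a cell (1 to 100 UMIs) held Ptgs2 at 664, 334, 77.9 and 35.4 CPM, in iWAT_DFAT, eWAT_DFAT, iWAT_SVF and eWAT_SVF. The droplet intervals lay above the level in cells in iWAT_DFAT, eWAT_DFAT and iWAT_SVF. In eWAT_SVF the droplet value rested on 251 UMIs and its interval contained the level in cells. Droplets are thus not placed above or below the cells of eWAT_SVF. DFAT cells with UMIs of at least 3 cell cycle markers had less Ptgs2 than the others, 442 against 630 CPM in iWAT_DFAT and 246 against 350 in eWAT_DFAT.

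Ptgs1 (ENSMUSG00000047250, chr2:36230426-36252272, plus strand), the cyclooxygenase that most tissues make at a steady level, was read at 149 and 129 CPM in the iWAT_DFAT and eWAT_DFAT libraries. Its levels in the iWAT_SVF and eWAT_SVF libraries were 55.1 (54.1 to 56.1) and 53.1 (52.1 to 54.1). It was 2.71-fold higher in DFAT than in SVF cells of iWAT and 2.44-fold higher in those of eWAT, and the depots differed by a log2 of 0.21 in DFAT and 0.05 in SVF cells. Both depot differences took the opposite sign under at least 1 other processing choice, so no depot order is drawn for Ptgs1. Ptgs2 made up 78.6% of all cyclooxygenase UMIs in iWAT_DFAT, 70.0% in eWAT_DFAT, 51.3% in iWAT_SVF and 37.6% in eWAT_SVF. The share is compared between libraries only, since the capture of the 2 transcripts may differ.

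Mesothelial-marker cells, 405 of the eWAT_SVF library, held more Ptgs1 than its other cells, at 205 against 45.4 CPM. Without the cells of other types, the Ptgs1 ratio of eWAT_DFAT over eWAT_SVF was a log2 of 1.52 in place of 1.29. At equal depth a UMI of either cyclooxygenase was found in 87.6% of iWAT_DFAT, 66.5% of eWAT_DFAT, 33.1% of iWAT_SVF and 28.8% of eWAT_SVF cells, and UMIs of both in 33.3%, 23.9%, 4.65% and 3.20%.

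Ptges (ENSMUSG00000050737, chr2:30889471-30929863, minus strand), the inducible synthase of prostaglandin E2, was nearly level between depots among DFAT cells, where the sign of the difference turned with the scaling. It stood at 110 CPM in iWAT_DFAT (109 to 112) and 107 in eWAT_DFAT (105 to 108), against 25.9 in iWAT_SVF (25.2 to 26.6) and 19.6 in eWAT_SVF (18.9 to 20.2). Both DFAT libraries were thus above both SVF libraries, by 4.25-fold in iWAT and 5.47-fold in eWAT. The share of cells with a UMI at equal depth was 38.9%, 35.8%, 11.7% and 9.34% in the same order. Gm13400 overlaps the bounds of Ptges on the same strand in the annotation. In the spliced Ptges transcripts, 0 of 3920 words of 50 bases occur in those of another gene. That count does not cover intronic reads, so the part of the overlap in the Ptges level was not tested. The constitutive synthases Ptges2 and Ptges3, listed among the other pathway genes, did not pass 2-fold in any of the 4 comparisons.

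A UMI of Pla2g4a, the cytosolic phospholipase that frees arachidonic acid, one of a cyclooxygenase and one of Ptges were found together in 17.2% of iWAT_DFAT and 11.4% of eWAT_DFAT cells at equal depth. The same set was found in 1.51% of iWAT_SVF and 0.712% of eWAT_SVF cells. Its shares were not compared with the product of the single shares, so they do not show that the transcripts occur together. Ptgs2 and Ptges were found together at 1.03, 1.16, 1.01 and 1.04 times the product of their single shares in iWAT_DFAT, eWAT_DFAT, iWAT_SVF and eWAT_SVF. UMIs of none of the 9 genes were found in 2.77% of iWAT_DFAT, 7.69% of eWAT_DFAT, 29.0% of iWAT_SVF and 19.7% of eWAT_SVF cells.

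Ptgis (ENSMUSG00000017969, chr2:167191805-167240604, minus strand), the prostacyclin synthase, had a depot order that ran against that of Ptgs2. It stood at 118 CPM in iWAT_DFAT, 167 in eWAT_DFAT, 69.4 in iWAT_SVF and 203 in eWAT_SVF, so that each eWAT library lay above its iWAT counterpart and eWAT_SVF was the highest of the 4. The log2 ratio of iWAT over eWAT was -0.50 (-0.52 to -0.47) in DFAT cells and -1.55 (-1.57 to -1.52) in SVF cells. DFAT over SVF was 0.77 (0.74 to 0.80) in iWAT and -0.28 (-0.30 to -0.26) in eWAT, which puts the 2 depots on opposite sides of 0.

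Mesothelial-marker cells of the eWAT_SVF library held Ptgis at 720 CPM (703 to 737), and 92.8% of them had a UMI at equal depth. The other 6340 cells of that library held 177 (175 to 179), above the 69.4 of iWAT_SVF, where no cell had 3 mesothelial markers. Without cells of other types, the log2 ratio of DFAT over SVF in eWAT was -0.11 in place of -0.28. In the eWAT_DFAT library, 115 adipocyte-marker cells held Ptgis at 14.7 (10.3 to 20.5), against 169 in its other cells.

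Ptgds (ENSMUSG00000015090, chr2:25466709-25470046, minus strand), a prostaglandin D2 synthase, was close to absent. It had 0, 2, 7 and 26 UMIs in the iWAT_DFAT, eWAT_DFAT, iWAT_SVF and eWAT_SVF libraries, and the 7 UMIs of iWAT_SVF came from 1 cell. With no UMI in iWAT_DFAT, a count of 0 allows up to 0.0163 CPM there (3 counts of the total). No ratio is given for it, as it was under 5 CPM in all 4 libraries.

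**Figure D1:**
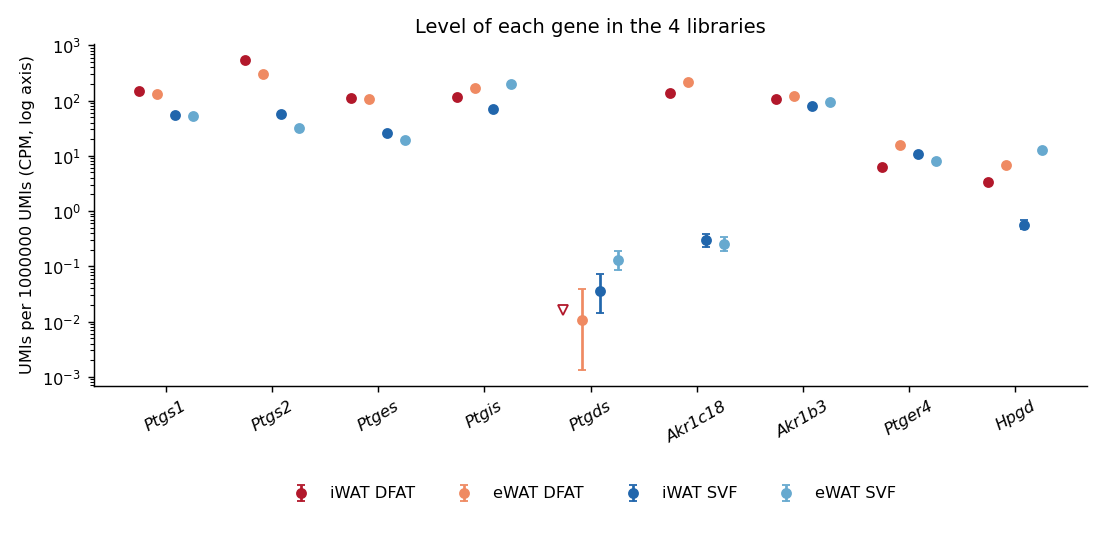
Level of the 9 genes in the 4 libraries, in CPM on a log axis. Points are the summed counts of all cells of 1 library and bars are exact 95% Poisson intervals. The open triangle stands for a count of 0 and is drawn at 3 counts of the library total. Ptgs2, Ptges and Ptgs1 are higher in both DFAT libraries than in both SVF libraries, Akr1c18 drops from 139 and 216 to 0.296 and 0.258, and Ptgis and Hpgd are highest in eWAT_SVF.

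Akr1c18 (ENSMUSG00000021214, chr13:4132615-4150654, minus strand), an aldo-keto reductase that inactivates progesterone and can make prostaglandin F2α, was the gene with the widest gap. It had 25496 UMIs in iWAT_DFAT and 40150 in eWAT_DFAT, or 139 (137 to 141) and 216 (214 to 218) CPM. In iWAT_SVF it had 59 UMIs and in eWAT_SVF 51, or 0.296 (0.225 to 0.382) and 0.258 (0.192 to 0.339) CPM. The log2 ratio of DFAT over SVF was 8.87 (8.51 to 9.27) in iWAT and 9.71 (9.32 to 10.1) in eWAT. Of the genes compared, 99.9% had a lower ratio in either depot. Empty droplets of the 2 SVF libraries held 2 UMIs of it each, or 0.280 (0.0339 to 1.01) and 0.282 (0.0341 to 1.02) CPM, too few to place it above or below the level in their cells.

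Among DFAT cells Akr1c18 was uneven. At equal depth 29.8% of iWAT_DFAT and 33.1% of eWAT_DFAT cells held a UMI, and the variance of the thinned count was 3.22 and 7.42 times its mean. In eWAT_DFAT, 104 cells with 10 or more thinned UMIs carried 24.9% of all its thinned UMIs, against 24 such cells and 6.02% in iWAT_DFAT. That limit was set after the counts were seen. Endothelial-marker and adipocyte-marker cells of eWAT_DFAT had shares of 8.63% and 8.70%, at 37.7 and 24.0 CPM, against 33.6% and 33.5% of the cells without those markers. The other Akr1c genes of the same cluster on chromosome 13 (8 coding genes in all) stayed under 5 CPM in all 4 libraries. Of the 50-base words of Akr1c18 transcripts, 0.581% also occur in another gene, Akr1cl.

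Across single cells, the genes whose log-scaled counts were most like those of Akr1c18 were Prdx1, Nqo1 and Ftl1, with a mean Pearson r of 0.53, 0.52 and 0.45 over the 2 DFAT libraries. Prdx1 is a peroxiredoxin, Nqo1 a quinone reductase and Ftl1 the ferritin light chain. In the SVF libraries, where Akr1c18 is near 0, r with Nqo1 was 0.084 and 0.026. Ptgs1 also had Nqo1 as its most similar gene, with r from 0.085 in eWAT_SVF to 0.56 in iWAT_DFAT and a mean of 0.30 over 4 libraries. The next were Gsto1, a glutathione transferase, at 0.29 and Txnrd1, a thioredoxin reductase, at 0.28. Akr1c18 was found in 41.2% of iWAT_DFAT cells with a Ptgs1 UMI and in 22.3% of those without, and in 39.9% and 28.8% in eWAT_DFAT. Cells of 1 library share their culture, and depth and cell state move all these counts, so these values are descriptions.

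**Figure D2:**
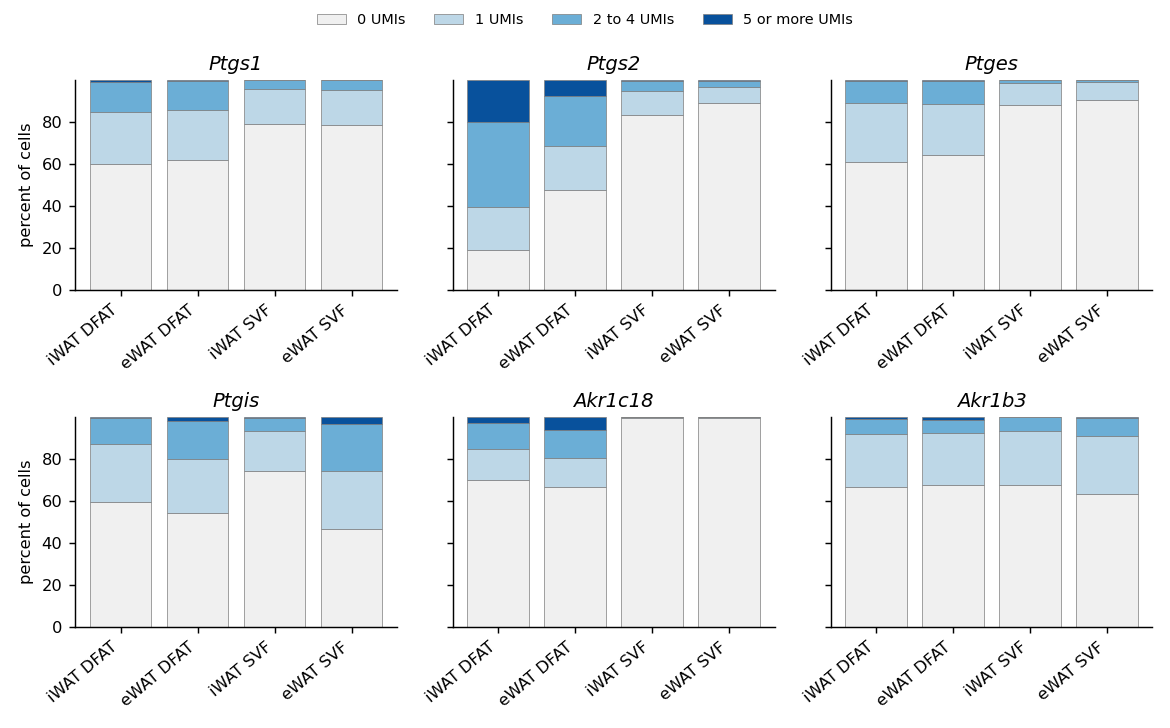
Share of cells, in percent, with 0, 1, 2 to 4 or 5 and more UMIs of 6 genes after every cell was thinned to 5000 UMIs, for each library. Ptgs2 is found in 81.0% of iWAT_DFAT cells, Akr1c18 in 29.8% and 33.1% of DFAT cells and almost no SVF cell, and Akr1b3 in about the same share of cells in every library.

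Akr1b3 (ENSMUSG00000001642, chr6:34302434-34317478, minus strand) is aldose reductase, which turns glucose into the osmolyte sorbitol and can also make prostaglandin F2α. Summed over cells it was close to level, at 108 (106 to 109), 123 (121 to 124), 80.5 (79.3 to 81.8) and 94.6 (93.2 to 95.9) CPM in iWAT_DFAT, eWAT_DFAT, iWAT_SVF and eWAT_SVF. The share of cells with a UMI at equal depth was likewise 33.5%, 32.1%, 32.4% and 36.6%. The spread was not alike: the variance of the thinned count was 8.40 and 14.8 times its mean in the DFAT libraries and 1.06 and 1.21 times in the SVF libraries.

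A small set of DFAT cells held Akr1b3 far above the rest. Cells with 10 or more thinned UMIs, a limit set after the counts were seen, numbered 39 in iWAT_DFAT (0.511%, 0.364 to 0.698), 76 in eWAT_DFAT (1.18%, 0.927 to 1.47), 0 in iWAT_SVF and 1 in eWAT_SVF. They carried 23.3% and 44.4% of the thinned Akr1b3 UMIs of the 2 DFAT libraries. The classes next to them were thin, with 21 and 9 DFAT cells at 5 to 9 UMIs. Akr1b3 stood at 4634 and 5089 CPM in these cells and at 88.2 and 79.5 in the others. As the cells were picked by their Akr1b3 count, a gap in Akr1b3 was set in advance.

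Without these cells the Akr1b3 ratio of DFAT over SVF in eWAT turned from a log2 of 0.37 to -0.25, and that in iWAT fell to 0.13 from 0.42. The ratio of iWAT_DFAT over eWAT_DFAT turned from -0.18 to 0.15. The direction of the summed level between eWAT_DFAT and eWAT_SVF thus rested on 76 of 6464 cells.

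The same cells were high in Ptgs2, at 3131 against 538 CPM in iWAT_DFAT and 2221 against 285 in eWAT_DFAT. Of the 39 iWAT_DFAT cells, 29 also had 10 or more thinned Ptgs2 UMIs, and of the 76 eWAT_DFAT cells, 43 did. The Ptgs2 limit was likewise set after the counts were seen. Pla2g4a was 713 against 154 and 261 against 99.6 CPM. Ptges was 140 against 110 CPM in iWAT_DFAT and 115 against 107 in eWAT_DFAT. Ptger4 was 22.7 (13.4 to 35.9) against 6.23 CPM in iWAT_DFAT and 22.0 (15.3 to 30.6) against 15.4 in eWAT_DFAT. Akr1c18 was 615 (577 to 654) against 213 in eWAT_DFAT and 236 (203 to 272) against 138 in iWAT_DFAT, while the share of cells with a thinned Akr1c18 UMI was 38.2% against 33.0% and 33.3% against 29.8%. Ptgs1 was 258 (224 to 296) against 149 CPM in iWAT_DFAT and 161 (142 to 182) against 129 in eWAT_DFAT. Ptgis was lower in the Akr1b3-rich cells of eWAT_DFAT, at 109 (93.6 to 127) against 167 CPM, and stood at 140 (115 to 168) against 118 in iWAT_DFAT. Hpgd rested on 3 and 8 UMIs in these cells of iWAT_DFAT and eWAT_DFAT.

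Among genes at 50 or more CPM in these cells, Slc6a12, Slco4a1 and Prss35 were in the leading 8 by fold in both DFAT libraries. The rest of the leading 8 were Tmem108, Il11, Cd24a, Atp1b1 and Pmaip1 in iWAT_DFAT and Txk, Gper1, Dusp2, Igfbp5 and Stc1 in eWAT_DFAT. Slc6a12, the transporter of the osmolyte betaine, stood at 89.5 against 0.213 CPM in iWAT_DFAT and 109 against 0.500 in eWAT_DFAT. Hspa4l, a heat shock family member, was picked after the values were seen and stood at 829 against 19.2 and 1040 against 21.2. The inositol transporter Slc5a3, also picked afterwards, was 117 against 19.7 and 87.9 against 22.8. The taurine transporter Slc6a6, picked in the same way, differed less, at 221 against 124 and 198 against 134 CPM. Nfat5, the transcription factor known for the response to hypertonic medium, was also picked after the values were seen. It stood at 282 against 129 and 202 against 86.3. The cytokine Il11 was 737 against 11.2 and 893 against 42.2. ASPC markers were found in 97.4% and 72.4% of these cells, against 97.2% and 63.8% of the others, and cell cycle markers in 12.8% and 14.5%, against 37.0% and 43.0%. Their median depth was 19113 and 18893 UMIs, against 22142 and 27549, and the median mitochondrial share was 2.67% and 1.88%, against 3.12% and 1.95%. Of the 50-base words of Akr1b3 transcripts, 9.48% also occur in transcripts of other genes, and whether its reads fall on those words was not examined. The part of any of these features in the Akr1b3 level was not tested.

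**Figure D3:**
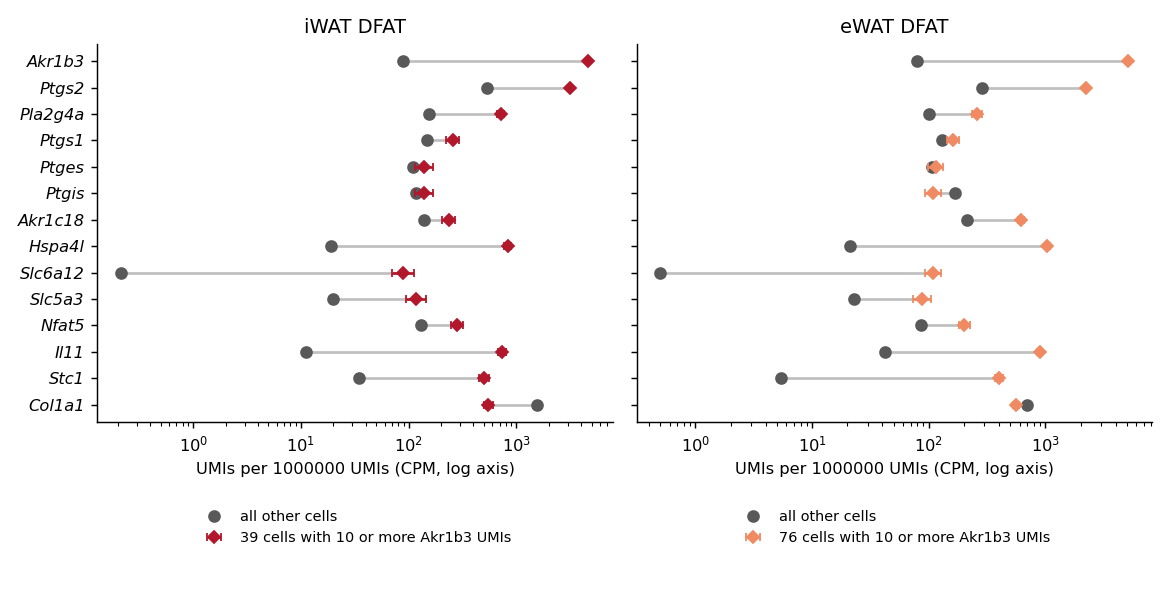
Level of 14 genes in DFAT cells with 10 or more thinned Akr1b3 UMIs (diamonds, with exact 95% Poisson intervals) and in all other cells of the same library (circles), in CPM on a log axis. Ptgs2, Pla2g4a, Hspa4l, Slc6a12, Slc5a3, Nfat5, Il11 and Stc1 are higher in the Akr1b3-rich cells of both libraries, while Ptges is close to its level elsewhere and Col1a1 is lower.

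Ptger4 (ENSMUSG00000039942, chr15:5206661-5244187, minus strand), the EP4 receptor for prostaglandin E2, was low throughout. It stood at 6.30 (5.95 to 6.68) in iWAT_DFAT, 15.4 (14.9 to 16.0) in eWAT_DFAT, 11.0 (10.5 to 11.4) in iWAT_SVF and 8.22 (7.82 to 8.63) CPM in eWAT_SVF. The order of the depots was not the same in the 2 sources: the log2 ratio of iWAT over eWAT was -1.29 (-1.39 to -1.19) in DFAT and 0.42 (0.32 to 0.51) in SVF cells. DFAT over SVF was -0.80 (-0.90 to -0.69) in iWAT and 0.91 (0.82 to 0.999) in eWAT. At equal depth 2.90%, 7.32%, 5.43% and 3.85% of cells held a UMI.

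Hpgd (ENSMUSG00000031613, chr8:56294585-56321043, plus strand), which starts the breakdown of prostaglandins, was highest in eWAT_SVF, at 12.7 CPM (12.3 to 13.3). It stood at 6.83 (6.46 to 7.22) in eWAT_DFAT, 3.33 (3.07 to 3.61) in iWAT_DFAT and 0.567 (0.467 to 0.681) in iWAT_SVF, so both eWAT libraries lay above both iWAT libraries. DFAT over SVF was a log2 of 2.56 (2.26 to 2.86) in iWAT, where both libraries were under 5 CPM, and -0.90 (-0.998 to -0.80) in eWAT. The log2 ratio of iWAT over eWAT was -4.49 (-4.78 to -4.22) in SVF and -1.04 (-1.18 to -0.90) in DFAT cells. In eWAT_SVF, 84 cells with 2 or more thinned UMIs, a limit set after the counts were seen, held 51.4% of its thinned UMIs. Genes leading by fold in those cells, among the ones at 50 or more CPM there, were Dpt (74.4 against 14.7), Cxcl14 (342 against 69.2) and Hsd11b1 (97.6 against 26.6), a dermatopontin, a chemokine and the enzyme that activates glucocorticoids. Adipocyte-marker cells of eWAT_DFAT held Hpgd at 23.1 (17.4 to 30.1), against 6.62 in its other cells. Gm45540 overlaps the bounds of Hpgd on the same strand. In the spliced Hpgd transcripts, 0 of 1634 words of 50 bases occur in those of another gene. Intronic reads are not covered by that count, and the part of the overlap in the Hpgd level was not tested.

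Counted over the 9 genes, those at 5 or more CPM in either library of a comparison were set against the share of all such genes that lay at least 2-fold apart. Of 7 members compared between iWAT_DFAT and iWAT_SVF, 4 were at least 2-fold higher in DFAT (Ptgs1, Ptgs2, Ptges and Akr1c18) and 0 lower, where 9.91% and 5.18% of 10426 genes were. Of 8 compared between eWAT_DFAT and eWAT_SVF, the same 4 were higher and 0 lower, where 6.44% and 6.67% of 10298 genes were. Between iWAT_DFAT and eWAT_DFAT, 0 of 8 were higher in iWAT and 2 lower (Ptger4 and Hpgd), where 8.29% and 3.95% of 10384 genes were. Between iWAT_SVF and eWAT_SVF, 0 of 7 were higher in iWAT and 2 lower (Ptgis and Hpgd), where 2.94% and 3.94% of 10135 genes were. The median log2 ratio of the members was 1.44 and 1.10 for DFAT over SVF in iWAT and eWAT, and -0.34 and 0.05 for iWAT over eWAT in DFAT and SVF cells, where the medians of all genes lay between 0.053 and 0.091. Hpgd lay near 2-fold, and its calls changed under 3 other processing choices each in iWAT_DFAT against eWAT_DFAT and in eWAT_DFAT against eWAT_SVF. Nothing is read from these counts about the list, since its members were chosen with the levels known.

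**Figure D4:**
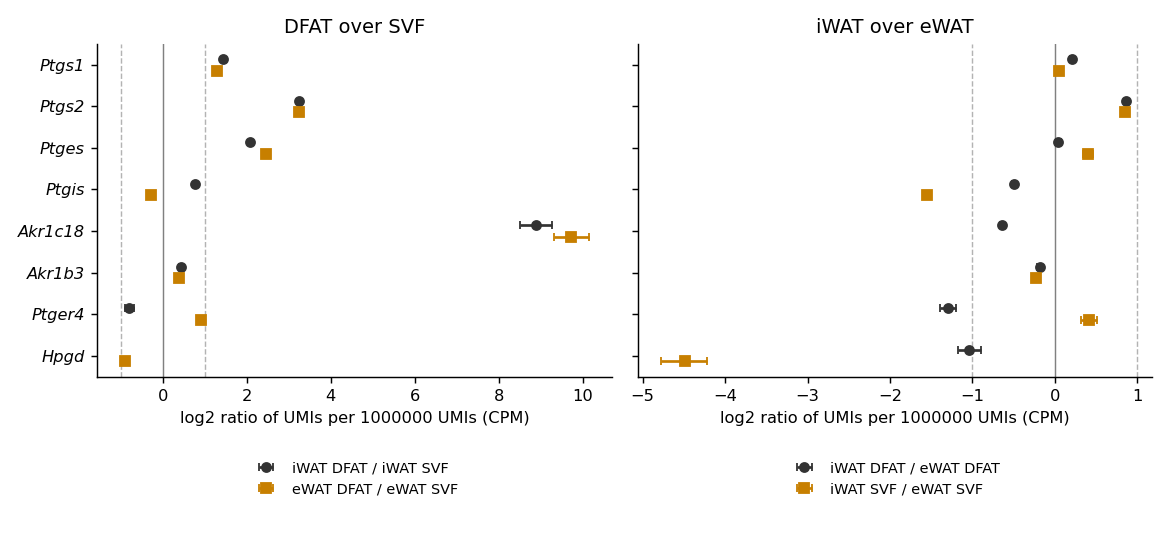
Log2 ratio of CPM for 8 genes, DFAT over SVF on the left and iWAT over eWAT on the right, with exact 95% intervals and dashed lines at 2-fold. Genes under 5 CPM in both libraries are left out. Ptgs2 lies at 3.25 and 3.24 on the left and at 0.86 in both sources on the right, Akr1c18 lies at 8.87 and 9.71, and Ptgis and Ptger4 take opposite signs in the 2 depots on the left.

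Ptgs2 had Pla2g4a as the gene most like it across cells. Pearson r on the log scale was 0.38 in iWAT_DFAT, 0.48 in eWAT_DFAT, 0.40 in iWAT_SVF and 0.44 in eWAT_SVF, the first among 5119 genes by its mean of 0.43. With every cell thinned to 5000 UMIs r was 0.21, 0.26, 0.17 and 0.23, and without cell cycle-marker cells 0.38, 0.51, 0.42 and 0.44. Pla2g4a was found in 49.4% of iWAT_DFAT cells with a Ptgs2 UMI and 35.6% of those without, in 42.0% and 23.1% in eWAT_DFAT, 34.7% and 19.9% in iWAT_SVF and 41.8% and 18.7% in eWAT_SVF. The next genes were Phlda1, at a mean r of 0.29, and Hmga2, a chromatin protein, at 0.26.

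Pla2g4a lies beside Ptgs2 on chromosome 1, at 149829618 to 149961290 on the minus strand of GRCm38. The genes point away from each other, with 139 kb and no coding gene between them. Its level was 156 CPM in iWAT_DFAT, 101 in eWAT_DFAT, 58.6 in iWAT_SVF and 54.9 in eWAT_SVF, the same order as Ptgs2. For Ptgis the most similar genes were Timp2, an inhibitor of matrix proteases, at a mean r of 0.28, Igfbp6 at 0.26 and Flrt2 at 0.23, and r with Timp2 ran from 0.030 in iWAT_SVF to 0.49 in eWAT_DFAT. No gene reached a mean r of 0.2 with Ptges, Akr1b3, Ptger4 or Hpgd.

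Of 48 other genes of the pathway in the tables, 25, 23, 25 and 24 reached 5 CPM in iWAT_DFAT against eWAT_DFAT, iWAT_SVF against eWAT_SVF, iWAT_DFAT against iWAT_SVF and eWAT_DFAT against eWAT_SVF. In that order 4, 0, 8 and 5 were at least 2-fold higher in the first library and 0, 0, 2 and 3 lower. Of all genes compared, 8.29%, 2.94%, 9.91% and 6.44% were higher and 3.95%, 3.94%, 5.18% and 6.67% lower. Of 9 genes of arachidonate release, 6 were compared, and only Pla2g4a was at least 2-fold higher in DFAT cells, in iWAT (2.67-fold) and not in eWAT. Mgll, which frees arachidonic acid from a lipid messenger, was 2.12-fold and 2.11-fold lower in DFAT than in SVF cells of iWAT and eWAT. Pla2g15, a lysosomal phospholipase named after its values were seen, was 2.10-fold lower in eWAT_DFAT (6.24 CPM) than in eWAT_SVF (13.1) and 1.27-fold lower in iWAT_DFAT than in iWAT_SVF. The phospholipases Pla2g12a and Plaat3 did not pass 2-fold, at 22.0 and 31.6 against 34.8 and 38.2 CPM for Pla2g12a and 18.3 and 24.6 against 25.6 and 28.2 for Plaat3, DFAT before SVF and iWAT before eWAT. Prxl2b, a prostaglandin F2α synthase, ranged from 20.4 to 29.4 CPM over the 4 libraries.

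Of 5 genes of transport and inactivation, 3 were at least 2-fold higher in DFAT cells of iWAT and 0 lower. Of all genes compared there, 9.91% were higher and 5.18% lower. In eWAT 2 of the 5 were higher and 0 lower, beside 6.44% and 6.67% of all genes. The transport genes Slco2a1 and Abcc4 were among the higher ones in each depot. Slco2a1, the transporter that takes prostaglandins into cells, stood at 315 CPM in iWAT_DFAT, 94.4 in eWAT_DFAT, 81.7 in iWAT_SVF and 44.2 in eWAT_SVF, which is again the order of Ptgs2. Abcc4, which pumps prostaglandins out, stood at 72.5 and 120 in the DFAT libraries and at 13.9 and 11.9 in the SVF libraries. It was 5.21-fold and 10.1-fold higher in DFAT cells. The inactivating reductases Ptgr1 and Ptgr2 ranged from 22.4 to 25.6 CPM and from 18.9 to 20.1 CPM over the 4 libraries. Zadh2, another reductase of prostaglandin breakdown products, stood at 37.2 and 33.5 CPM in iWAT_DFAT and eWAT_DFAT and at 16.9 and 23.5 CPM in iWAT_SVF and eWAT_SVF, 2.20-fold and 1.43-fold higher in DFAT cells.

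The receptor list held 9 genes, with Ptgfrn, which is not itself a prostanoid receptor, and without the member Ptger4. Of these 9, 4 were compared between iWAT_DFAT and iWAT_SVF. There 3 were at least 2-fold higher in DFAT (Ptgfr, Ptgir and Ptgfrn) and 1 lower (Tbxa2r), beside 9.91% and 5.18% of all genes compared. Of 3 compared between eWAT_DFAT and eWAT_SVF, 1 was higher (Ptgir) and 1 lower (Tbxa2r), beside 6.44% and 6.67%. Ptger4, counted with the members, had log2 ratios of DFAT over SVF of -0.80 in iWAT and 0.91 in eWAT. Between iWAT_DFAT and eWAT_DFAT, 3 of 4 were higher in iWAT (Ptgfr, Tbxa2r and Ptgfrn) and 0 lower, beside 8.29% and 3.95%. Between iWAT_SVF and eWAT_SVF, 0 of 3 were higher and 0 lower, beside 2.94% and 3.94%. Tbxa2r, the thromboxane receptor, stood at 5.62 and 2.56 CPM in the iWAT_DFAT and eWAT_DFAT libraries and at 38.5 and 49.0 in the iWAT_SVF and eWAT_SVF libraries. It was 6.84-fold lower in DFAT cells of iWAT and 19.1-fold lower in those of eWAT. Ptgfr, the receptor for prostaglandin F2α, stood at 19.3 in iWAT_DFAT and at 1.65, 3.11 and 0.668 in eWAT_DFAT, iWAT_SVF and eWAT_SVF. Ptgir, the prostacyclin receptor, was named after its values were seen, at 13.0 and 18.7 in DFAT and 5.59 and 5.79 in SVF libraries. Ptgfrn, which encodes a regulator of the prostaglandin F2α receptor, stood at 39.3 and 17.2 CPM in the iWAT_DFAT and eWAT_DFAT libraries and at 14.4 and 19.4 in the iWAT_SVF and eWAT_SVF libraries. The prostaglandin E2 receptors Ptger1, Ptger2 and Ptger3 stayed under 5 CPM in all 4 libraries, between 0.136 and 1.83. Ptgdr, a prostaglandin D2 receptor, had 0 UMIs in all 4 libraries.

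Of 14 further reductases, 5 were compared and 1 passed 2-fold: Cbr3, a carbonyl reductase, was 164 CPM in eWAT_DFAT against 59.7 in eWAT_SVF, where 6.44% of all genes compared were at least 2-fold higher. Akr1b8, a relative of Akr1b3, stood at 63.6 and 62.0 in DFAT and 38.7 and 42.7 in SVF libraries. Akr1a1, an aldehyde reductase, ranged from 298 to 364 CPM over the 4 libraries, and Cbr1, a carbonyl reductase, from 27.0 to 39.8. Of the leukotriene genes, Ltc4s, the leukotriene C4 synthase, was 3.68-fold and 7.06-fold higher in DFAT cells, at 12.5 and 8.79 against 3.38 and 1.25 CPM, and Alox5 stayed under 0.1. Lta4h, the leukotriene A4 hydrolase, ranged from 23.0 to 29.1 CPM.

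**Figure D5:**
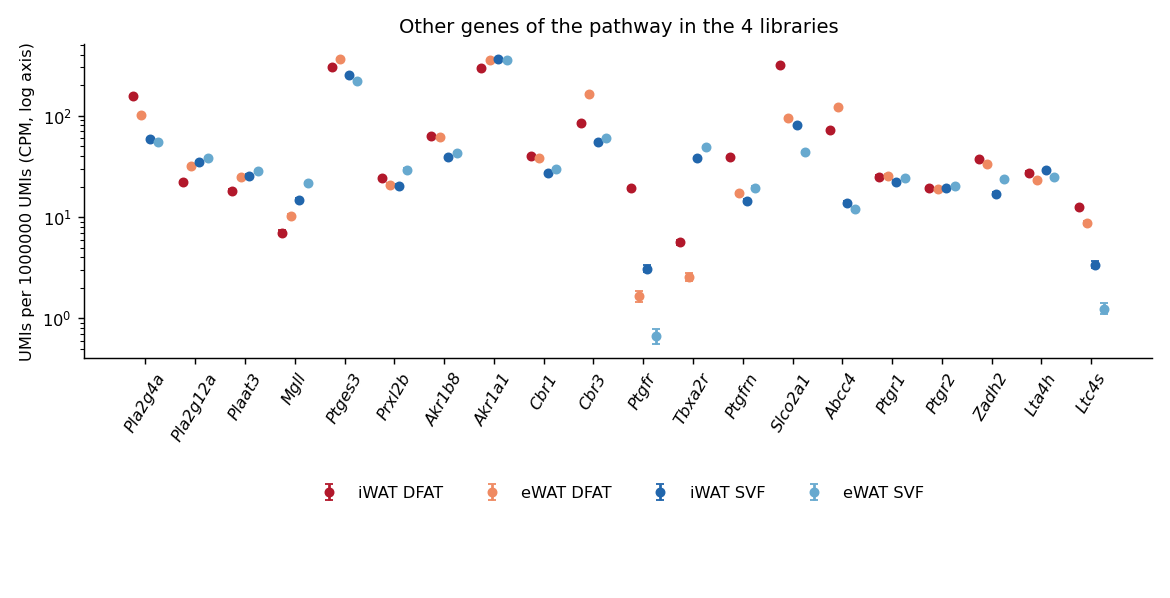
Level of 20 further genes of the pathway in the 4 libraries, in CPM on a log axis, with exact 95% Poisson intervals. Pla2g4a, Slco2a1, Abcc4 and Ltc4s are higher in both DFAT libraries than in the SVF library of the same depot, Tbxa2r is lower, and Ptgfr is highest in iWAT_DFAT.

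The count tables of the iWAT_SVF library name another version of the read counter than the other 3, so intronic reads may not have been counted alike there, and the part of this in the iWAT_SVF levels and ratios was not tested. The eWAT_DFAT and eWAT_SVF tables name the same version, and there the ratios of Ptgs1, Ptgs2, Ptges and Akr1c18 were 1.29, 3.24, 2.45 and 9.71 on the log2 scale. As these are 1 library each, no p-value is given for any difference.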

How the data were processed

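Droplet-based single-cell RNA sequencing of 4 libraries, 1 per condition, was analysed from deposited UMI counts per gene and barcode. The authors made the counts with Cell Ranger 7.0.0 on mm10, per the methods and labels, with intronic reads included, per the methods. The file headers name 7.1.0 for 3 libraries and 4 for iWAT_SVF, so it is not settled that introns were counted alike in iWAT_SVF. The deposited counts hold all barcodes, with neither free RNA nor doublets removed. Cells were barcodes with 5000 to 75000 UMIs, 200 to 7500 genes and under 10% mitochondrial UMIs; the study's lower limit of 500 UMIs was an alternative. Scrublet, run in scanpy 1.11.5, called 0 to 3 cells a library as doublets and so did not work there; removing the highest scores, 0.8% of cells per 1000, was an alternative.

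UMIs of each gene were summed over the cells of a library and divided by the total (counts per 1000000, CPM), with exact 95% Poisson intervals, exact binomial intervals for shares and conditional binomial intervals for ratios (scipy 1.17.1, Python 3.11.15). For shares each cell was thinned to 5000 UMIs with seed 7. With 1 library a condition there was no test, so no replicate error could be given. Genes at 5 CPM or more in either library entered the 2-fold counts. The ratio code was checked on simulated counts. The members and gene lists were chosen with earlier results of these data known. Named were all 9 members, pathway genes at 20 CPM or 4-fold apart, and for each member up to 3 genes with a mean r of 0.2 or more; other names were chosen after their values were seen. Alternatives changed the cell filters, scaling, free RNA (10% subtracted), depth, cells of other types and cycling cells. Leaving out Akr1b3-rich cells was added after the data were seen.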

Additional observations from a re-analysis of the deposited data

Results flagged for a closer look

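The Ptgis difference between the DFAT and SVF libraries ran in opposite directions in the 2 depots. The log2 ratio of DFAT over SVF was 0.77 in iWAT and -0.28 in eWAT, a difference of 1.05. Ptger4 also took opposite directions, with -0.80 in iWAT and 0.91 in eWAT, a difference of -1.71. Read the other way, the Ptger4 ratio of iWAT over eWAT was -1.29 in DFAT and 0.42 in SVF cells, which is the same difference of -1.71. Hpgd had the wider split, with 2.56 in iWAT and -0.90 in eWAT, a difference of 3.46 (3.15 to 3.76), but it was under 5 CPM in both iWAT libraries. With 1 library per condition these differences between depots or sources were not tested. Each of them includes iWAT_SVF, whose counts name another version of the read counter, and the part of this was not tested.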

How the results depend on the processing

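Of 360 alternative values for 30 member ratios (12 alternatives each), 7 changed direction and 7 crossed 2-fold. The direction of the Ptges ratio of iWAT_DFAT over eWAT_DFAT turned to -0.036 with scaling by the median ratio and to -0.029 without cell cycle-marker cells, and that of Ptgs1 to -0.0056 without them. Ptgs1 in iWAT_SVF over eWAT_SVF turned to -0.060 as a mean of per-cell CPM and to -0.094 after thinning. Without Akr1b3-rich cells, an alternative chosen after seeing the data, Akr1b3 turned to 0.15 in iWAT_DFAT over eWAT_DFAT. In eWAT_DFAT over eWAT_SVF it turned to -0.25. Those cells were picked by their Akr1b3 count, so a fall in the DFAT level was set in advance. The cause was not tested for any reversal. The 4 members higher in DFAT than in SVF cells stayed past 2-fold in both depots under each alternative, with Ptgs2 between 3.10 and 3.43 and Akr1c18 between 8.52 and 10.1.

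Hpgd lay near 2-fold: 1 member rather than 2 was lower in iWAT_DFAT than in eWAT_DFAT, and 1 rather than 0 lower in eWAT_DFAT than in eWAT_SVF, with 15000 to 40000 UMIs per cell, with mean per-cell CPM and after thinning. Without cycling cells 1 member, Ptgs2, rather than 0 was 2-fold higher in iWAT_SVF than in eWAT_SVF. With a minimum of 1 CPM in place of 5, 808 rather than 410 genes were lower in iWAT_DFAT than in eWAT_DFAT, 666 and 714 rather than 298 and 399 were higher and lower in iWAT_SVF than in eWAT_SVF, 965 rather than 540 were lower in iWAT_DFAT than in iWAT_SVF, and 1196 and 1085 rather than 663 and 687 were higher and lower in eWAT_DFAT than in eWAT_SVF. With a minimum of 20 CPM the counts higher and lower were 527 and 205, 139 and 216, 666 and 307, and 364 and 389 in the order iWAT_DFAT against eWAT_DFAT, iWAT_SVF against eWAT_SVF, iWAT_DFAT against iWAT_SVF and eWAT_DFAT against eWAT_SVF. No paired analysis was possible because each condition is 1 library and no test was made; leaving out a replicate was not possible for the same reason. Depth limits Ptgds, with at most 26 UMIs a library, and shares of cells for Ptger4 and Hpgd.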
